A study of Mus musculus with 46 samples.

Results

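Fatty acid synthesis in bone marrow-derived macrophages was described through 6 genes, taken by symbol from the 24671 genes of the deposited table. All 6 were found and all 6 had enough counts to be tested. They were Acly (ATP citrate lyase) and Acss2 (the nuclear and cytosolic acetyl-CoA synthetase), which make acetyl-CoA from citrate and from acetate, Acaca (acetyl-CoA carboxylase alpha), which makes malonyl-CoA, Fasn (fatty acid synthase), which builds palmitate, Me1 (cytosolic malic enzyme), which supplies NADPH, and Mid1ip1. Mid1ip1 is not an enzyme but a protein that promotes the polymerisation of acetyl-CoA carboxylase and so raises its activity.

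The 46 libraries of polyadenylated RNA came from mouse macrophages grown in culture from bone marrow, to which compounds that act on liver X receptors (LXR) or on estrogen receptors (ER) had been added. The groups were GSK2033 + 27HC, ICI + 27HC, 27HC, GW3965 with a second compound, GW3965, GSK2033, ICI and E2, with 5 libraries each, and Vehicle with 6. 27HC is 27-hydroxycholesterol, a cholesterol metabolite with LXR and ER among its receptors, GW3965 is a synthetic LXR agonist, GSK2033 is an LXR antagonist, ICI is the short name of an ER antagonist (fulvestrant), and E2 is estradiol. For GW3965 with a second compound, the labels conflict, with 27HC in the titles and ICI in the source name and the treatment field, and that compound is left unnamed here. The labels give no dose, exposure time, mouse strain, sex or age, and none states that the replicates are separate animals or separate cultures. The p-values therefore measure the spread between these libraries, which may be technical.

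As background, cells make palmitate in the cytosol from acetyl-CoA. Acetyl-CoA carboxylase adds a carboxyl group to give malonyl-CoA, and fatty acid synthase condenses malonyl-CoA units with electrons from NADPH. In liver and fat the genes of this pathway are switched on by SREBP-1c, a transcription factor encoded by Srebf1, and LXR with an agonist switches on Srebf1 and, in part directly, Fasn. SREBP-2, encoded by Srebf2, mainly serves cholesterol synthesis, and excess sterol holds both SREBPs inactive. In macrophages LXR agonists are known to raise synthesis of fatty acids along with cholesterol export.

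Libraries held between 19354093 and 30921038 estimated counts. All levels are CPM (counts scaled to a common library size) after scaling by trimmed mean of M values (TMM). A gene was called changed at an adjusted p under 0.05 in edgeR's quasi-likelihood test over 13838 genes. Overlap between groups is described gene by gene, and the share of all genes without overlap was not counted. All 9 macrophage markers examined were tested, and their summed level in a library ran from 10151 to 25221 CPM. Markers of hepatocytes and adipocytes, other cells rich in this pathway, stayed below 0.434 CPM in sum in every library, and those of neutrophils, lymphocytes, dendritic cells, erythroid cells and mast cells at or below 3.04 CPM. By symbol, 3 of 5 hepatocyte, 4 of 5 adipocyte, 3 of 4 erythroid and 3 of 4 mast cell markers were found. The others are not in these sums. All 6 stromal markers were expressed and none was at 0 in any library, with Col1a1 (a collagen chain) at 986 to 2018 CPM. Their summed level was 3765 to 4063 CPM with GSK2033 + 27HC, 2811 to 3191 with ICI + 27HC, 3378 to 3827 with 27HC, 2684 to 3292 with GW3965 and the second compound, 3166 to 3823 with GW3965, 3683 to 4547 with GSK2033, 3594 to 4177 with ICI and 4389 to 4940 with E2, against 4255 to 5030 with Vehicle. The macrophage markers summed to 14069 to 15801 CPM with GSK2033 + 27HC, 11440 to 12242 with ICI + 27HC, 16228 to 17632 with 27HC, 10151 to 10698 with GW3965 and the second compound, 11809 to 12299 with GW3965, 18174 to 19329 with GSK2033, 16004 to 16946 with ICI and 23502 to 25221 with E2, against 22698 to 24723 with Vehicle. The mitochondrially encoded share of counts averaged 1.34% with GSK2033 + 27HC, 1.66% with ICI + 27HC, 1.90% with 27HC, 1.80% with GW3965 and the second compound, 2.17% with GW3965, 1.37% with GSK2033, 1.98% with ICI and 1.84% with E2, against 1.60% with Vehicle. The marker lists and this share thus moved with the treatments, and their part in the results was not tested. The sums hide mixed directions, and Lyz2 alone ran from 3703 to 12102 CPM. Of the 9 macrophage markers, 2 were called higher and 7 lower with GW3965 against Vehicle, where 44.2% of all genes were called. With ICI, 3 were called higher and 6 lower, where 26.4% of all genes were called. In these bulk libraries fewer cells of a type, less RNA per cell and regulation of the marker genes themselves cannot be told apart.

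On GRCm38 with GENCODE M21, Acly lies on the minus strand of chr11:100476353-100528000, Acaca on the plus strand of chr11:84129672-84401651 and Fasn on the minus strand of chr11:120805846-120824547. Acss2 lies on the plus strand of chr2:155517948-155585724, Me1 on the minus strand of chr9:86581371-86695953 and Mid1ip1 on the plus strand of chrX:10715013-10719690. Acss2 overlaps genes of the opposite strand, among them Gss (glutathione synthetase, at most 30.5 CPM) and Ggt7 (at most 4.27 CPM). These are overlaps of whole gene spans, and whether exons overlap was not examined. The library kit keeps strand, but the sources used here do not say whether the counting used it. Where exons overlap, reads of Acss2 and of these neighbours may not be told apart.

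The promoters below are shown because Fasn and Mid1ip1 followed each other across the groups while Acss2 and Me1 did not follow them. Each runs 5′ to 3′ on the gene's strand from 250 bases before to 50 bases after an annotated start (RefSeq, GRCm38.p6), and capitals mark the CCAAT box (CCAAT) and the GC box (GGGCGG), searched on both strands. The windows are chr11:120824498-120824797 for Fasn, chrX:10717115-10717414 for Mid1ip1, chr2:155517793-155518092 for Acss2 and chr9:86695865-86696164 for Me1.
Fasn: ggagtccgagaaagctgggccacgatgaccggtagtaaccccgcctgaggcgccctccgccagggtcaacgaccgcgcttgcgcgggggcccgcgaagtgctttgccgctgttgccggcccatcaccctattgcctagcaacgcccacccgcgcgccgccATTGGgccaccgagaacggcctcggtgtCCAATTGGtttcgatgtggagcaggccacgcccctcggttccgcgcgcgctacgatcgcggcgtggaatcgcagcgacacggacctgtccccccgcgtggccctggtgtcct
Mid1ip1: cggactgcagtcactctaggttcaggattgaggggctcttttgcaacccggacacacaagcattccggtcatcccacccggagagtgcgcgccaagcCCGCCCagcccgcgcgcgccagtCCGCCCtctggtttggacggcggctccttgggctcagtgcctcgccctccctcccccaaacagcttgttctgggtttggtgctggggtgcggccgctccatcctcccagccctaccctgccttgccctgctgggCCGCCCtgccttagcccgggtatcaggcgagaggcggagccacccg
Acss2: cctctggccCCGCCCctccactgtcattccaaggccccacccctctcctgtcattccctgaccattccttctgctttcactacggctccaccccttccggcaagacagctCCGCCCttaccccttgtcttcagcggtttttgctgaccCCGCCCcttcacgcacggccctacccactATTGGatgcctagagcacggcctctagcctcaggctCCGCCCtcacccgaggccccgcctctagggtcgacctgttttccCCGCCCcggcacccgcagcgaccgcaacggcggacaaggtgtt
Me1: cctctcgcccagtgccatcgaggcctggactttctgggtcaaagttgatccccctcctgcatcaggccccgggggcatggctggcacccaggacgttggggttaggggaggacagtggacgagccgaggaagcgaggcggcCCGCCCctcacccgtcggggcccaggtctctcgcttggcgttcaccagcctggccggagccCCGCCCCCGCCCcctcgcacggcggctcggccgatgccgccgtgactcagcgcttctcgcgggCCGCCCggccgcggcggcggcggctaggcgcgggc
The Fasn window held 3 CCAAT matches, 2 of which overlapped each other, and no GC box. Mid1ip1 held 3 GC boxes, Acss2 5 GC boxes and 1 CCAAT match, and this Me1 window 4 GC boxes. Of 32851 mouse promoter windows of this length, 37.4% held a CCAAT match and 35.7% a GC box, so neither is unusual. A sterol regulatory element (TCACNCCAC, in 1.24% of all windows), an E-box (CACGTG, in 7.15%) and an LXR element (AGGTCA, any 4 bases, AGGTCA, in 0.0152%) were in none of the 7 windows listed for the 6 genes. These exact letters were looked for in these windows alone, which each cover a single annotated start. So rare a string as the LXR element would seldom turn up in 7 windows. The lack of matches does not show that the genes lack such sites. The start site of the Acaca window lies 65766 bases inside the gene as GENCODE draws it, and that window held no match to any motif. The start site of the Mid1ip1 window lies 2352 bases inside, and that of the other Me1 window, which is not shown, 8676 bases inside.

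**Figure D1:**
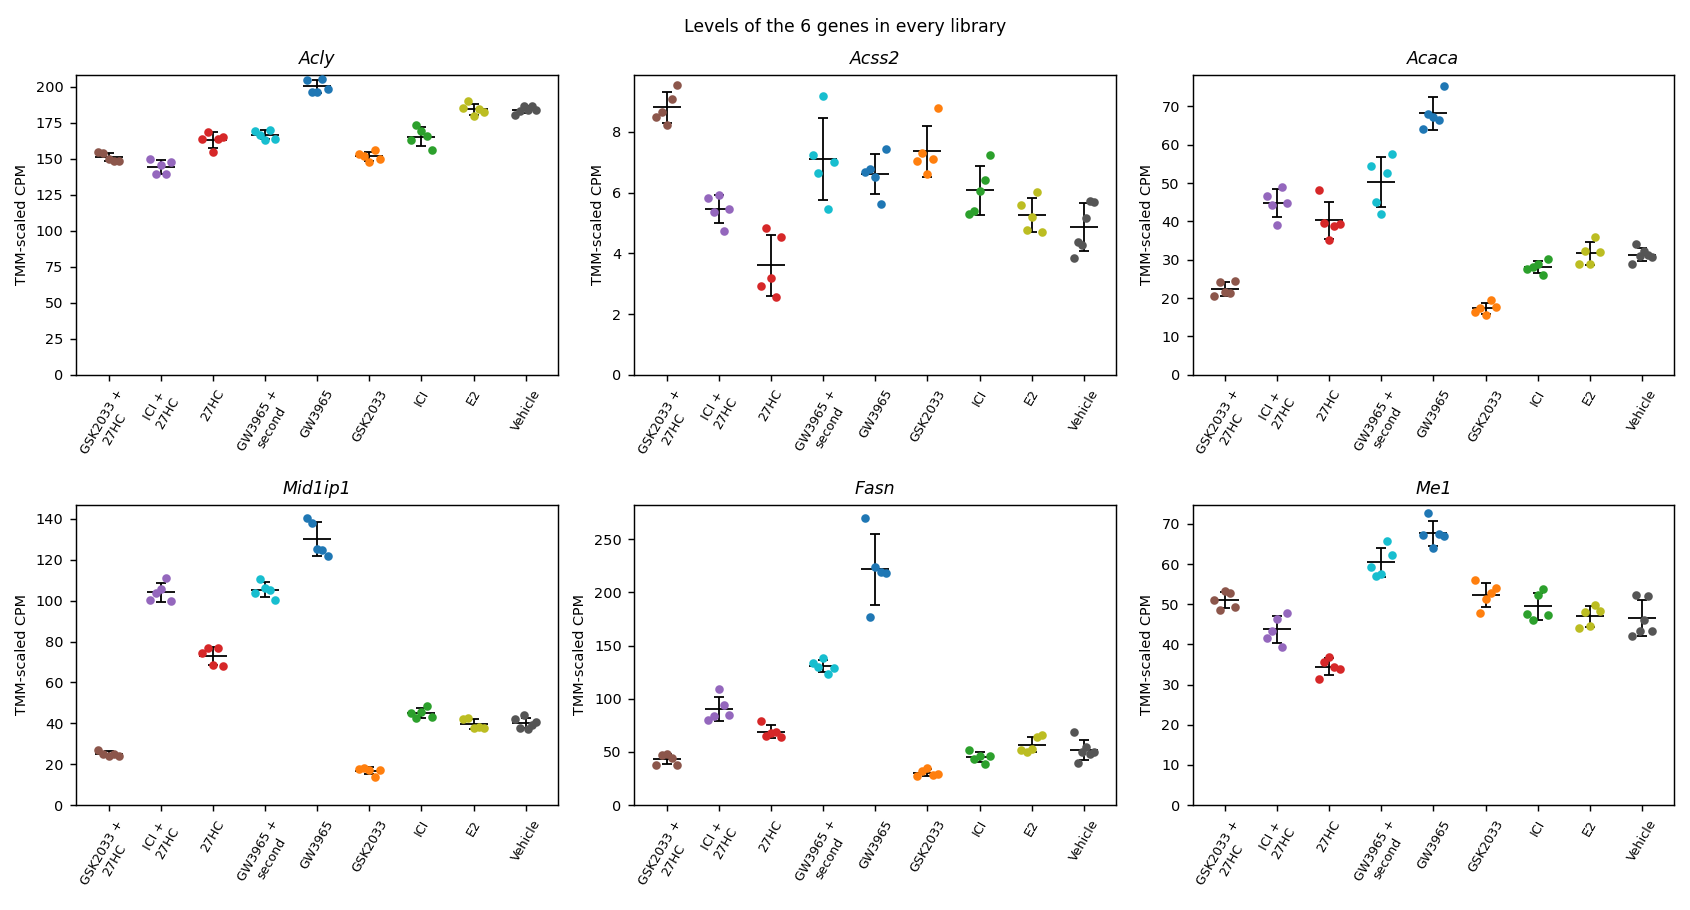
TMM-scaled CPM of the 6 genes (y axes, each from 0) in every library, by group (x axis); points are libraries, the wide tick is the mean and the bar is ± SD (n = 5, Vehicle n = 6). GW3965 had the highest mean for every gene but Acss2, which was highest with GSK2033 + 27HC (8.81 CPM).

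Over the 9 groups the genes moved by very different amounts. The highest group mean was 7.71 times the lowest for Mid1ip1, 7.31 times for Fasn and 3.94 times for Acaca, each with GW3965 highest and GSK2033 lowest. For Acss2 it was 2.44 times, with GSK2033 + 27HC highest and 27HC lowest, for Me1 1.96 times, with GW3965 highest and 27HC lowest, and for Acly 1.39 times, with GW3965 highest and ICI + 27HC lowest. In log2 CPM the range of Mid1ip1 was wider than that of 98.7% of the tested genes, and that of Acly wider than 47.8%. Thus the carboxylase, its activator and the synthase spanned most of the variation of the set, and the citrate lyase varied about as much as a typical gene.

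Levels per kb of the longest coding transcript allow genes to be set against each other only if the counts were uncorrected for length. Whether the deposited counts were corrected is not known, and the order of the genes depends on it. On this scale Acly was the most abundant of the 6 with Vehicle at 41.6 ± 0.519 CPM per kb (SD, n = 6). Mid1ip1 stood at 19.9, Me1 at 14.1, Fasn at 5.13, Acaca at 3.30 and Acss2 at 1.66 CPM per kb in the same libraries. With GW3965, Mid1ip1 at 64.4 ± 4.17 CPM per kb lay above Acly at 45.2 ± 1.02 CPM per kb (SD, n = 5 each), and Fasn reached 22.0 CPM per kb, near Me1 at 20.5 CPM per kb. The order with GSK2033 was Acly at 34.3, Me1 at 15.9, Mid1ip1 at 8.35, Fasn at 3.02, Acss2 at 2.51 and Acaca at 1.82 CPM per kb. Transcripts of other lengths would shift these levels, since the isoform in use was not measured. Acacb, the mitochondrial carboxylase isoform, stayed between 0.316 and 0.616 CPM in group means, and Thrsp, the paralog of Mid1ip1, reached at most 0.0909 CPM in any library and was not tested.

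**Figure D2:**
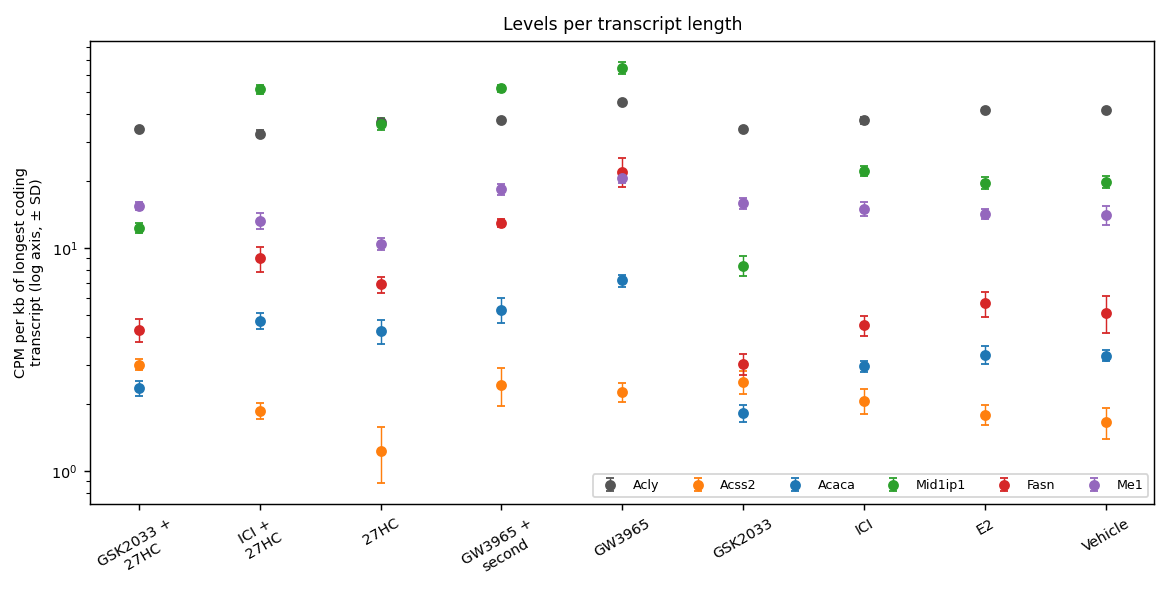
CPM per kb of the longest coding transcript (log y axis) of the 6 genes in each group (x axis); points are means and bars ± SD (n = 5, Vehicle n = 6). Mid1ip1 lies above Acly with GW3965 (64.4 against 45.2) and below Me1 with GSK2033 (8.35 against 15.9), while Acly keeps a narrow range.

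GW3965 was compared with Vehicle to describe the response to a synthetic LXR agonist. All 6 genes rose, Fasn and Mid1ip1 most and Acly least. Over all genes 44.2% were called changed and 23.1% were called higher and 21.1% lower, and the 6 of 6 is to be read against these shares. Fasn had 270, 177, 224, 219 and 218 CPM with GW3965, against 39.2 to 68.3 CPM (median 49.5) with Vehicle. Every GW3965 library lay above every Vehicle library, although the GW3965 libraries spread widely. The log2 fold change of Fasn was 2.1 (SE 0.10, adjusted p = 1.14e-21), a 4.29-fold higher level. Mid1ip1 had 141, 138, 125, 125 and 122 CPM with GW3965, against 37.4 to 44.0 CPM (median 39.9) with Vehicle, a log2 fold change of 1.70 (SE 0.05, adjusted p = 2.01e-30). The groups were far apart, with no library between 44.0 and 122 CPM.

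Acaca, which supplies the substrate of Fasn, had 64.0, 67.9, 67.3, 66.4 and 75.3 CPM with GW3965, against 29.0 to 34.0 CPM (median 31.1) with Vehicle. Its log2 fold change was 1.12 (SE 0.07, adjusted p = 8.44e-18), with no overlap between the groups. Me1 averaged 67.6 ± 3.17 CPM with GW3965 (SD, n = 5) and 46.5 ± 4.54 CPM with Vehicle (SD, n = 6), a log2 fold change of 0.54 (SE 0.06, adjusted p = 2.21e-11). The enzymes that make acetyl-CoA changed least. Acss2 had 6.66, 6.78, 6.52, 5.64 and 7.44 CPM with GW3965, against 3.86 to 5.73 CPM (median 4.78) with Vehicle, and 1 GW3965 library lay inside the Vehicle range (log2 fold change 0.44, SE 0.13, adjusted p = 0.00324). Acly had 205, 196, 196, 205 and 199 CPM with GW3965, against 180 to 187 CPM with Vehicle. Its groups did not overlap, yet the change was only 1.09-fold (log2 fold change 0.12, SE 0.02, adjusted p = 4.54e-05).

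Other genes of the pathway were counted from lists by role. With GW3965 against Vehicle, 23.1% of all genes were called higher and 21.1% lower. Of 11 other genes of NADPH supply, 9 rose and 0 fell with GW3965 (median log2 fold change 0.63), among them G6pdx (the entry enzyme of the pentose phosphate pathway, 0.63) and Me2 (mitochondrial malic enzyme, 0.74). In elongation and desaturation 10 of 11 rose (median 0.28), led by Scd2 (a stearoyl-CoA desaturase, 4.63), with Elovl6 (the elongase that acts on palmitate) at 0.70. Of 11 other genes of acetyl-CoA and citrate supply 6 rose and 1 fell (median 0.13), with Slc25a1 (the mitochondrial citrate carrier) at 0.26. In cholesterol synthesis 5 of 22 rose and 7 fell (median 0.04). The median over all tested genes lay within 0.01 of 0 here and in every other comparison. Srebf1 rose to 363 ± 8.18 CPM with GW3965 (SD, n = 5), against 69.8 ± 3.18 CPM with Vehicle (SD, n = 6), a log2 fold change of 2.38 (adjusted p = 6.05e-37), while Srebf2 had 179 CPM with GW3965 and 182 CPM with Vehicle (adjusted p = 0.655).

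27HC was compared with Vehicle to describe the response to an oxysterol ligand. The 6 genes split by direction: Mid1ip1, Fasn and Acaca rose, and Me1, Acss2 and Acly fell. All 6 were called, where 40.3% of all genes were called, 20.3% higher and 20% lower. Mid1ip1 had 74.2, 76.8, 68.5, 76.8 and 68.1 CPM with 27HC, against 37.4 to 44.0 CPM with Vehicle, a log2 fold change of 0.86 (SE 0.05, adjusted p = 6.73e-19). The groups did not overlap, and the lowest 27HC library was 68.1 CPM. Acaca had 48.3, 39.6, 35.3, 38.8 and 39.4 CPM with 27HC, against 29.0 to 34.0 CPM with Vehicle, a log2 fold change of 0.36 (SE 0.07, adjusted p = 7.47e-05). All 27HC libraries again lay above all Vehicle libraries, the lowest by little. Fasn had 78.9, 65.2, 68.2, 69.1 and 64.2 CPM with 27HC, against 39.2 to 68.3 CPM with Vehicle, a log2 fold change of 0.42 (SE 0.10, adjusted p = 0.000924). The overlap came from a single Vehicle library at 68.3 CPM, the others being at or below 54.6 CPM.

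Me1 had 31.4, 35.7, 36.9, 34.3 and 33.9 CPM with 27HC, against 42.0 to 52.3 CPM (median 44.8) with Vehicle. It fell by 0.44 on the log2 scale (SE 0.06, adjusted p = 2.07e-08), with no overlap. Acly had 164, 169, 155, 164 and 165 CPM with 27HC, against 180 to 187 CPM with Vehicle, and fell by 0.18 on the log2 scale (SE 0.02, adjusted p = 5.77e-08), also with no overlap. Acss2, the least abundant gene, had 2.94, 4.82, 3.17, 2.57 and 4.54 CPM with 27HC, against 3.86 to 5.73 CPM with Vehicle. Its log2 fold change was -0.43 (SE 0.13, adjusted p = 0.00743). The 27HC libraries fell into 3 low values and 2 inside the Vehicle range, and the call was lost when the test used the 27HC and Vehicle libraries alone (adjusted p = 0.0561). Acss2 had 60.7 to 249 estimated counts per library over the series, so its values carry more counting error than those of the other genes.

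Among the related lists, cholesterol synthesis moved most with 27HC, with 21 of 22 genes lower and 0 higher (median log2 fold change -1.03). In NADPH supply 6 of 11 rose and 1 fell (median 0.09), where 20.3% of all genes rose and 20% fell. Me2 rose by 0.38 on the log2 scale where the cytosolic Me1 fell, and G6pdx averaged 230 CPM with 27HC and 231 CPM with Vehicle (log2 fold change -0.01, adjusted p = 0.860). Acss1, the mitochondrial acetyl-CoA synthetase, rose by 0.48 on the log2 scale (adjusted p = 0.000775), in the direction opposite to Acss2. Of the genes of elongation and desaturation 5 of 11 rose and 3 fell (median 0.15), with Scd2 at 1.61, and Slc25a1 fell by 0.34 on the log2 scale. Srebf1 rose by 0.19 on the log2 scale (adjusted p = 0.00159), Srebf2 fell by 1.51 (adjusted p = 1.87e-31) and Insig1, which encodes a sterol-dependent retention factor of SREBP, fell by 1.71 (adjusted p = 1.75e-35).

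Set directly against GW3965, 27HC left all 6 genes lower, where 25.3% of all genes were called and 12.5% were called lower. None of the 6 had overlapping groups, but the share of all genes without overlap was not counted. Fasn averaged 69.1 ± 5.81 CPM with 27HC and 222 ± 33.2 CPM with GW3965 (SD, n = 5 each), a log2 fold change of -1.68 (SE 0.11, adjusted p = 3.69e-17). The difference was -0.97 for Me1 (34.4 CPM with 27HC and 67.6 CPM with GW3965), -0.88 for Acss2 (3.61 CPM with 27HC and 6.61 CPM with GW3965) and -0.84 for Mid1ip1 (72.9 CPM with 27HC and 130 CPM with GW3965). It was -0.76 for Acaca (40.3 CPM with 27HC and 68.2 CPM with GW3965) and -0.30 for Acly (163 CPM with 27HC and 200 CPM with GW3965). Adjusted p for these 5 ran from 3.79e-18 to 1.22e-06. Me1, Acss2 and Acly lay below their Vehicle means with 27HC and above them with GW3965. Srebf1 differed by -2.19 and Srebf2 by -1.49 on the log2 scale in this comparison.

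**Figure D3:**
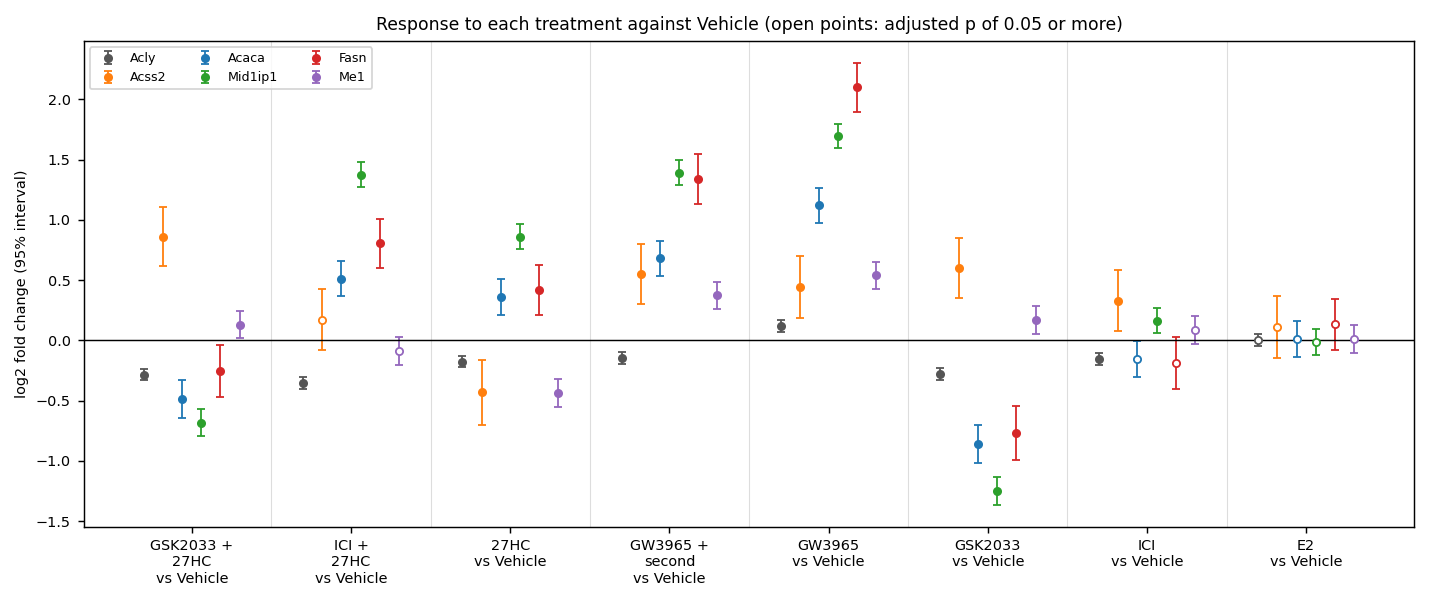
Log2 fold change against Vehicle (y axis) of the 6 genes for each of 8 treatments (x axis); points are estimates, bars 95% intervals, and open points have an adjusted p of 0.05 or more. GW3965 gave 6 higher genes, 27HC 3 higher and 3 lower, and GSK2033 gave lower Mid1ip1 (-1.25) with higher Acss2 (0.60).

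GSK2033 was compared with Vehicle to describe the response to an LXR antagonist alone. Mid1ip1, Acaca, Fasn and Acly fell, and Acss2 and Me1 rose. All 6 were called, where 36.3% of all genes were, 18.4% higher and 17.9% lower. Mid1ip1 had 17.7, 18.3, 17.2, 13.9 and 17.3 CPM with GSK2033, against 37.4 to 44.0 CPM with Vehicle, and fell by 1.25 on the log2 scale (SE 0.06, adjusted p = 2.20e-22). Acaca had 16.4, 17.3, 15.6, 19.5 and 17.8 CPM with GSK2033, against 29.0 to 34.0 CPM with Vehicle, and fell by 0.86 (SE 0.08, adjusted p = 2.03e-12). Fasn had 27.5, 32.2, 35.1, 28.0 and 28.8 CPM with GSK2033, against 39.2 to 68.3 CPM with Vehicle, and fell by 0.77 (SE 0.11, adjusted p = 2.27e-07). None of the 3 genes had overlapping groups, but the share of all genes without overlap was not counted. Acly averaged 152 ± 3.19 CPM with GSK2033 (SD, n = 5) and 184 ± 2.3 CPM with Vehicle (SD, n = 6), a log2 fold change of -0.28 (SE 0.02, adjusted p = 3.72e-13).

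Acss2 went the other way. It had 7.03, 7.30, 6.60, 7.09 and 8.79 CPM with GSK2033, against 3.86 to 5.73 CPM with Vehicle, with no overlap and a log2 fold change of 0.60 (SE 0.12, adjusted p = 0.000115). Acss2 thus rose with the agonist GW3965 and with the antagonist GSK2033, and these comparisons share the Vehicle libraries. Me1 had 55.9, 47.9, 51.2, 52.8 and 54.0 CPM with GSK2033, against 42.0 to 52.3 CPM with Vehicle, overlapping groups with a log2 fold change of 0.17 (SE 0.06, adjusted p = 0.0146). That call was lost without 1 library of either group (adjusted p = 0.0596 without GSK2033 replicate 1 and 0.0516 without Vehicle replicate 1) and in a fit of these groups alone (0.0506).

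With GSK2033, 20 of 22 cholesterol synthesis genes fell (median log2 fold change -0.81), as did 7 of 11 genes of elongation and desaturation, where 1 rose (median -0.38). Scd2 fell by 1.70 and Elovl6 by 0.42 on the log2 scale. In NADPH supply 3 of 11 rose and 3 fell (median -0.08), where 18.4% of all genes rose and 17.9% fell. Srebf1 averaged 50.4 ± 1.03 CPM with GSK2033 (SD, n = 5) and 69.8 ± 3.18 CPM with Vehicle (SD, n = 6), and Srebf2 94.5 ± 3.81 CPM with GSK2033 and 182 ± 6.41 CPM with Vehicle. Both fell, by 0.47 and by 0.95 on the log2 scale (adjusted p = 1.37e-10 and 7.15e-24).

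The addition of GSK2033 to 27HC was compared with 27HC to describe the effect of the antagonist in the presence of 27HC. All 6 genes were called, where 42.8% of all genes were: Mid1ip1, Acaca, Fasn and Acly were lower and Acss2 and Me1 higher than with 27HC alone. Mid1ip1 had 27.1, 24.9, 23.9, 25.0 and 24.2 CPM with GSK2033 + 27HC, against 74.2, 76.8, 68.5, 76.8 and 68.1 CPM with 27HC, and fell by 1.54 on the log2 scale (SE 0.06, adjusted p = 7.69e-27). Acss2 had 8.50, 8.67, 8.23, 9.09 and 9.54 CPM with GSK2033 + 27HC, against 2.94, 4.82, 3.17, 2.57 and 4.54 CPM with 27HC, a log2 fold change of 1.29 (SE 0.13, adjusted p = 2.71e-11). Neither gene had overlapping groups, and the combination held the highest Acss2 of all 9 groups. Me1 averaged 51.0 ± 2.07 CPM with GSK2033 + 27HC and 34.4 ± 2.08 CPM with 27HC (SD, n = 5 each), a log2 fold change of 0.57 (adjusted p = 4.71e-11). Acaca fell by 0.85 and Fasn by 0.68 on the log2 scale (adjusted p = 1.41e-12 and 1.62e-06). GSK2033 alone had log2 fold changes against Vehicle of -1.25 for Mid1ip1, -0.86 for Acaca, -0.77 for Fasn and -0.28 for Acly. For Acss2 and Me1 they were 0.60 and 0.17.

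Against Vehicle, where 50.4% of all genes were called, GSK2033 + 27HC had all 6 called as well. Acaca averaged 22.4 ± 1.78 CPM with the combination (SD, n = 5) and 31.4 ± 1.68 CPM with Vehicle (SD, n = 6). Mid1ip1 averaged 25.0 ± 1.25 CPM with the combination and 40.1 ± 2.56 CPM with Vehicle, and Acss2 8.81 ± 0.514 CPM with the combination and 4.85 ± 0.787 CPM with Vehicle. The calls of Fasn (log2 fold change -0.26, adjusted p = 0.0419) and Me1 (0.13, adjusted p = 0.0458) lay close to the threshold with overlapping groups. Without Vehicle replicate 1, the Fasn value was -0.16 (adjusted p = 0.208) and the Me1 value 0.10 (adjusted p = 0.135). Leaving out replicate 1, 4 or 5 of the combination or Vehicle replicate 4 also lost the Fasn call, and 5 other libraries that of Me1. Without a filter on low counts the Fasn call was lost too (edgeR, adjusted p = 0.108). In a fit of these groups alone both were lost (edgeR, adjusted p = 0.110 for Fasn and 0.0597 for Me1).

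Within GSK2033-treated cells, 27HC still raised Acaca, Fasn and Mid1ip1, where 35.8% of all genes were called and 17.1% were called higher. Fasn had 37.7, 47.2, 48.3, 44.7 and 38.1 CPM with GSK2033 + 27HC, against 27.5, 32.2, 35.1, 28.0 and 28.8 CPM with GSK2033, a log2 fold change of 0.51 (SE 0.12, adjusted p = 0.000365) with no overlap. Acaca rose by 0.37 on the log2 scale (SE 0.08, adjusted p = 0.00032) and Mid1ip1 by 0.56 (SE 0.06, adjusted p = 1.77e-10), both with no overlap. Acly had a log2 fold change of -0.00 (95% interval -0.06 to 0.05), Me1 of -0.04 (-0.15 to 0.08) and Acss2 of 0.26 (0.01 to 0.51, adjusted p = 0.102), and none was called.

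The interaction tests whether the 27HC effect differed with and without GSK2033, and 19.6% of all genes were called. It was called for 4 of the 6 genes. For Fasn the difference in log2 effect was 0.09 (95% interval -0.22 to 0.41, adjusted p = 0.746) and for Acaca 0.01 (-0.21 to 0.23, adjusted p = 0.968), so a difference within those bounds was not detected. For Mid1ip1 it was -0.30 (SE 0.08, adjusted p = 0.00487): the log2 fold change with 27HC was 0.56 over GSK2033 and 0.86 over Vehicle. Acss2 differed by 0.69 (SE 0.18, adjusted p = 0.00409), Me1 by 0.40 (SE 0.08, adjusted p = 0.000232) and Acly by 0.17 (SE 0.04, adjusted p = 0.000231). These last 3 genes fell with 27HC alone and were not called over GSK2033, except that Acss2 was called higher over GSK2033 in a fit of the compared groups alone (0.26, adjusted p = 0.0302) and without GSK2033 replicate 5 (0.34, adjusted p = 0.0417).

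**Figure D4:**
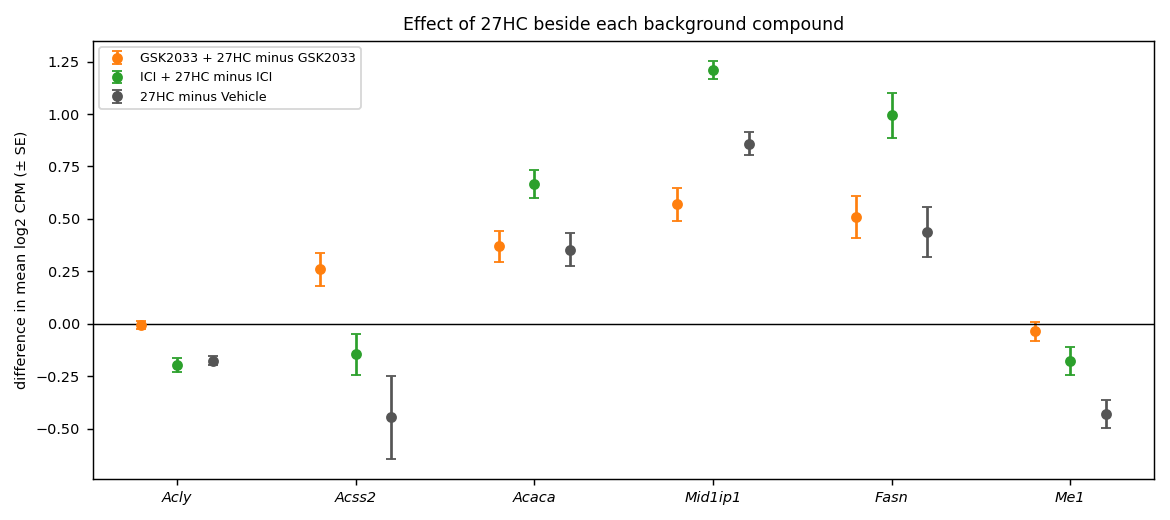
Difference in mean log2 CPM made by 27HC (y axis, ± SE) for the 6 genes (x axis) over GSK2033, over ICI and over Vehicle. For Fasn the 27HC effect was 0.51 over GSK2033, 0.99 over ICI and 0.44 over Vehicle, while for Acss2 it was 0.26 over GSK2033, -0.15 over ICI and -0.45 over Vehicle.

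ICI alone was called for 3 of the 6 genes against Vehicle, where 26.4% of all genes were called. Acly had 163, 173, 169, 166 and 156 CPM with ICI, against 180 to 187 CPM with Vehicle, and fell by 0.16 on the log2 scale (SE 0.02, adjusted p = 1.48e-06) with no overlap. Mid1ip1 rose by 0.16 (SE 0.05, adjusted p = 0.0158) and Acss2 by 0.33 (SE 0.13, adjusted p = 0.0468), with overlapping groups. Only the Acly call held whichever library was left out. The Mid1ip1 call was lost without ICI replicate 4 (adjusted p = 0.0832) or Vehicle replicate 4 (0.0535), where 1 of the 6 genes was still called. The Acss2 call was lost without any of 7 single libraries. It was also lost without a filter on low counts (edgeR, adjusted p = 0.0739) and in a fit of these groups alone (0.0719). Acaca averaged 28.1 ± 1.57 CPM with ICI (SD, n = 5) and 31.4 ± 1.68 CPM with Vehicle (SD, n = 6, adjusted p = 0.132), and Fasn 45.2 ± 4.76 CPM with ICI and 51.6 ± 9.62 CPM with Vehicle (adjusted p = 0.204). In a fit of these groups alone Acaca was called lower (log2 fold change -0.16, adjusted p = 0.0353). Srebf2 fell by 0.76 on the log2 scale with ICI and 19 of 22 cholesterol synthesis genes fell, with 0 higher.

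Added to 27HC, ICI changed 5 of the 6 genes relative to 27HC, where 34.1% of all genes were called. Mid1ip1 had 100, 104, 106, 111 and 99.6 CPM with ICI + 27HC, against 74.2, 76.8, 68.5, 76.8 and 68.1 CPM with 27HC, and rose by 0.51 on the log2 scale (SE 0.05, adjusted p = 2.54e-11). Fasn had 79.6, 83.7, 109, 94.2 and 85.1 CPM with ICI + 27HC, against 78.9, 65.2, 68.2, 69.1 and 64.2 CPM with 27HC, and rose by 0.38 (SE 0.11, adjusted p = 0.00373). The groups did not overlap, though for Fasn the lowest ICI + 27HC library and the highest 27HC library were less than 1 CPM apart. Acss2 rose by 0.61 and Me1 by 0.35, and Acly fell by 0.18 (adjusted p = 0.000425, 7.73e-06 and 2.29e-07). Acaca was not called (0.15, 95% interval -0.00 to 0.30, adjusted p = 0.121). It was called higher without 27HC replicate 1 (0.22, adjusted p = 0.0194) or without ICI + 27HC replicate 3 (0.20, adjusted p = 0.0474). Against Vehicle, where 53% of all genes were called, ICI + 27HC had 4 of the 6 called, with Mid1ip1 at 1.38, Fasn at 0.80 and Acaca at 0.51 higher and Acly at -0.35 lower.

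The interaction of ICI with 27HC was called for 4 of the 6 genes, where 17.4% of all genes were. The 27HC effect on Fasn was larger over ICI by 0.57 on the log2 scale (SE 0.15, adjusted p = 0.0046), that on Mid1ip1 by 0.35 (SE 0.07, adjusted p = 0.000332) and that on Acaca by 0.31 (SE 0.11, adjusted p = 0.0393). For Me1 the interaction was 0.26 (SE 0.08, adjusted p = 0.0216), meaning a smaller fall. The Acaca call was lost without any of 11 single libraries, and that of Me1 without 27HC replicate 1 (adjusted p = 0.0599), ICI + 27HC replicate 5 (0.0540) or Vehicle replicate 2 (0.0509) and in a fit of the compared groups alone (0.0609). Without Vehicle replicate 2 both were lost, leaving 2 calls. Acss2 (0.28, 95% interval -0.10 to 0.65) and Acly (-0.02, -0.09 to 0.05) were not called.

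E2 was called for 0 of the 6 genes against Vehicle, where 4.7% of all genes were called, in edgeR and also in DESeq2. Fasn averaged 56.8 ± 7.25 CPM with E2 (SD, n = 5) and 51.6 ± 9.62 CPM with Vehicle (SD, n = 6), a log2 fold change of 0.13 (95% interval -0.08 to 0.35). Acly averaged 184 CPM in both groups (interval -0.05 to 0.05), Mid1ip1 39.7 CPM with E2 and 40.1 CPM with Vehicle (-0.12 to 0.09), and Acaca 31.6 CPM with E2 and 31.4 CPM with Vehicle (-0.14 to 0.16). The intervals were -0.10 to 0.13 for Me1 and -0.14 to 0.37 for Acss2. An unadjusted p under 0.05 was found for 0 of the 6.

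The second compound was compared with GW3965 alone for its effect on the response to GW3965. It lowered 5 of the 6 genes, where 17.5% of all genes were called and 9.56% were called lower. Fasn had 133, 130, 138, 123 and 129 CPM with GW3965 and the second compound, against 270, 177, 224, 219 and 218 CPM with GW3965, and fell by 0.76 on the log2 scale (SE 0.10, adjusted p = 1.90e-07). Acaca had 54.5, 45.1, 41.9, 52.6 and 57.6 CPM with the second compound added, against 64.0, 67.9, 67.3, 66.4 and 75.3 CPM with GW3965, and fell by 0.44 (SE 0.07, adjusted p = 1.31e-05). Mid1ip1 fell by 0.31 and Acly by 0.26 (adjusted p = 9.16e-06 and 2.43e-11). None of these 4 had overlapping groups, but the share of all genes without overlap was not counted. The Me1 call (-0.16, adjusted p = 0.0402) was lost without any of 7 single libraries. It was also lost without a filter on low counts (edgeR, adjusted p = 0.0780). Acss2 was not called (0.11, 95% interval -0.15 to 0.36). Srebf1 had 217 ± 11.8 CPM with the second compound added and 363 ± 8.18 CPM with GW3965 (SD, n = 5 each). Against Vehicle, where 49.5% of all genes were called, all 6 were called: Mid1ip1 at 1.39, Fasn at 1.34, Acaca at 0.68, Acss2 at 0.55 and Me1 at 0.38 were higher and Acly at -0.14 was lower.

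The unequal response of the genes was tested by the log2 ratio of each gene's counts to those of Fasn within a library, which does not depend on scaling. There were 20 such exact two-sided permutation tests (5 genes, 4 treatments against Vehicle), adjusted together, and the smallest raw p that 5 against 6 libraries can give is 0.00433. All tests share the Fasn counts and the Vehicle libraries, so they are not independent. Fasn rose most of the 6 genes with GW3965 (log2 fold change 2.1). A fall of all 5 ratios there follows from dividing by it. The ratio to Fasn with GW3965 fell by 1.99 for Acly, 1.65 for Acss2, 1.57 for Me1 and 0.99 for Acaca (exact permutation test, adjusted p = 0.00962 each). For Mid1ip1 it fell by 0.41 (same test, adjusted p = 0.0346). The Mid1ip1 call was lost without any of 8 single libraries (adjusted p up to 0.0758). With 27HC it fell by 0.87 for Me1, 0.61 for Acly (adjusted p = 0.00962 each) and 0.90 for Acss2 (adjusted p = 0.0266, lost without any of 3 single libraries) and rose by 0.42 for Mid1ip1 (adjusted p = 0.0144). The ratio of Acaca to Fasn differed by -0.08 with 27HC and by -0.11 with GSK2033 (adjusted p = 0.638 each), so a difference between them was not detected at this spread. With GSK2033 the ratio rose for Acss2 by 1.36 and Me1 by 0.93 (adjusted p = 0.00962 each) and Acly by 0.47, and fell for Mid1ip1 by 0.50 (adjusted p = 0.0144 each). With GSK2033 + 27HC it rose for Acss2 by 1.11 (adjusted p = 0.00962) and fell for Mid1ip1 by 0.44 (adjusted p = 0.0309), and was not called for the other 3. This Mid1ip1 call was lost without any of 7 single libraries (adjusted p up to 0.0635).

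Over the 9 group means of log2 CPM, Acaca followed Mid1ip1 (r = 0.976) and Fasn (r = 0.966), and Fasn followed Mid1ip1 (r = 0.921). Acss2 ran with Me1 (r = 0.750) and not with Mid1ip1 (r = -0.307), and Acly had no r above 0.480 with any of the other 5. Fasn ran with Srebf1 (r = 0.943), as did Acaca (r = 0.863) and Mid1ip1 (r = 0.786), whereas Acly ran with Srebf2 (r = 0.891) and Acss2 with neither (0.09 and -0.09). These r are descriptions over 9 points that share the sequencing pool and the scaling, and GW3965 lies far from the rest for Srebf1.

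**Figure D5:**
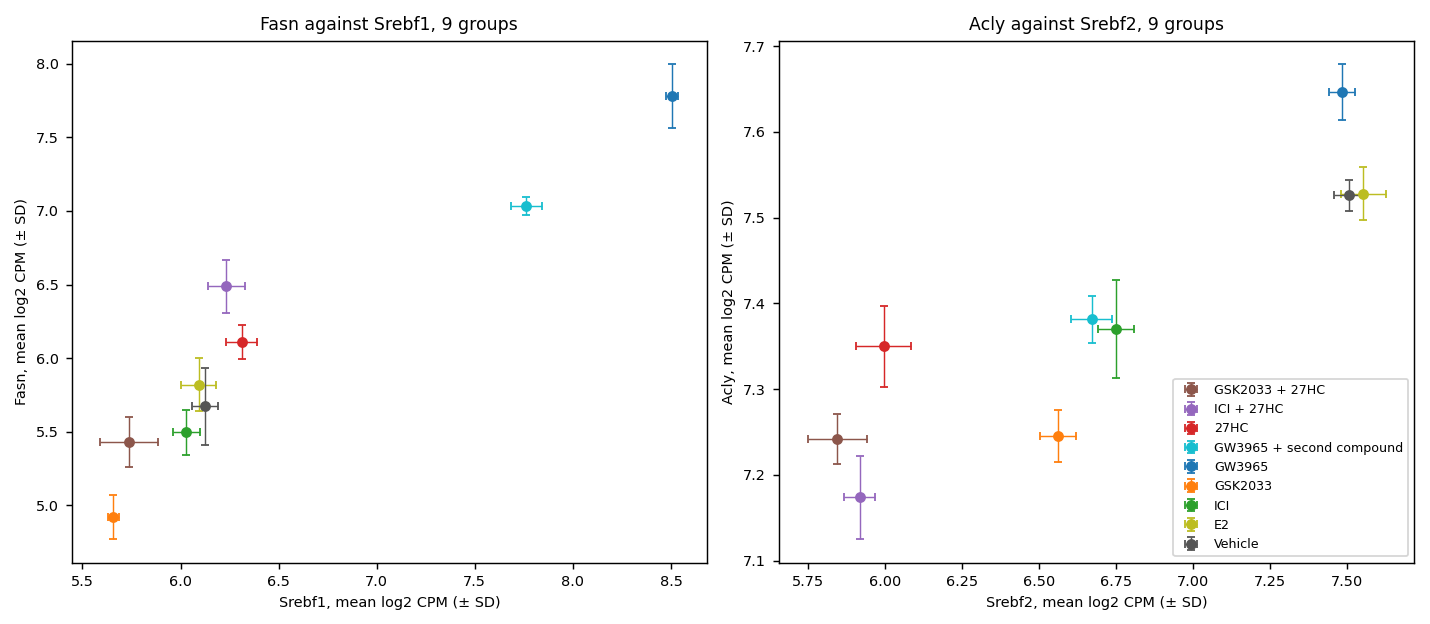
Group means of log2 CPM of Fasn against Srebf1 (left) and of Acly against Srebf2 (right); each point is 1 of 9 groups, with bars of ± SD (n = 5, Vehicle n = 6). Both GW3965 groups lie at high Srebf1 and Fasn, and the lowest Fasn is with GSK2033.

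The genes most like each of the 6 over the 9 group means were taken among genes of at least 5 CPM, with a minimum on their range relative to that of the member. For Fasn they were Scd1 (r = 0.964), Sowahc (0.963) and Scd2 (0.960), for Acaca Rnd2 (0.981), Usp2 (0.960) and Scd2 (0.959), and for Mid1ip1 Usp2 (0.980), Abcb4 (0.979) and Pdgfb (0.977). For Acly they were Lpin1 (0.980), S100a11 (0.976) and Fads1 (0.975), for Acss2 Pycr1 (0.970), Bcat1 (0.964) and Pcdh19 (0.916), and for Me1 Tmem41b (0.912), Rras2 (0.911) and Jam3 (0.903). Over the 6 groups without combinations, Scd1 and Scd2 stayed among the 3 genes most like Fasn, and Pycr1 and Bcat1 among those most like Acss2. For the other 4 genes, 0 of the 3 were shared between the sets of 9 and 6 groups.

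In the order of group means, neighbours often had overlapping libraries. For Fasn, GW3965 (222 CPM), GW3965 with the second compound (131 CPM), ICI + 27HC (90.3 CPM) and 27HC (69.1 CPM) each stood apart from the next below without overlap down to 27HC. From 27HC down, E2 (56.8 CPM), Vehicle (51.6 CPM), ICI (45.2 CPM) and GSK2033 + 27HC (43.2 CPM) overlapped their neighbours, and GSK2033 (30.3 CPM) stood below all. For Mid1ip1, GW3965 with the second compound (105 CPM) and ICI + 27HC (104 CPM) had overlapping libraries, as did ICI (45.0 CPM) with Vehicle (40.1 CPM), whose difference was called, and Vehicle with E2 (39.7 CPM), whose difference was not, and the other neighbours had no overlap. For Acss2 every neighbour in the order overlapped the next. For Me1, 27HC (34.4 CPM) stood below all other groups without overlap and both GW3965 groups stood above them.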

How the data were processed

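The deposited table held estimated counts per gene for 46 libraries, which the authors quantified with kallisto 0.44.0 on GRCm38, per the submitters' processing notes. How transcripts were summed to genes, and whether length was corrected for, is not given in the sources used here. The library pool was sequenced as stranded single reads of polyadenylated RNA, per the labels' protocols. Libraries were grouped by treatment label. Of 24671 genes, 24243 had a symbol in GENCODE M21. Counts were rounded, and genes were filtered with filterByExpr, leaving 13838. They were scaled by TMM and fitted with edgeR 4.0.16 (quasi-likelihood, robust, R 4.3.3), with a mean for each of the 9 groups and 37 residual degrees of freedom. P-values were adjusted by Benjamini-Hochberg over all genes tested, with a threshold of 0.05. Correlations used log2 CPM with a prior count of 2, and ratios to Fasn a pseudocount of 0.5. No pair of libraries agreed within counting error (chi-square per degree of freedom 3.91 to 12.3). Alternatives were DESeq2 1.42.0, its size factors, no filter, fewer groups, a replicate block and leaving out each library. The 6 genes are named in every comparison, with a fixed set of other pathway genes. The members and lists were chosen with earlier results of these data known.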

Additional observations from a re-analysis of the deposited data

Results flagged for a closer look

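In GSK2033 replicate 4, Mid1ip1 stood at 13.9 CPM, apart from the other 4 libraries of its group at 17.2 to 18.3 CPM. It was the only such library among 54 combinations of gene and group examined, where chance gives about 1 in 20.

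The effect of 27HC differed with and without GSK2033 for 4 genes. On the log2 scale, the 27HC effect over GSK2033 minus that over Vehicle was 0.69 for Acss2, 0.40 for Me1, 0.17 for Acly and -0.30 for Mid1ip1 (edgeR quasi-likelihood interaction, adjusted p = 0.00409, 0.000232, 0.000231 and 0.00487).

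It also differed with and without ICI for 4 genes. The 27HC effect over ICI minus that over Vehicle was 0.57 for Fasn, 0.35 for Mid1ip1, 0.31 for Acaca and 0.26 for Me1 (edgeR quasi-likelihood interaction, adjusted p = 0.0046, 0.000332, 0.0393 and 0.0216). In all, 12 interactions were tested and 8 were called, where 19.6% of all genes were called for GSK2033 and 17.4% for ICI. With ICI, the Acaca call was lost in 11 of 21 leave-outs of a library and that of Me1 in 3. The Acaca call was also lost without a filter on low counts (adjusted p = 0.0572). That of Me1 was lost in a fit of the compared groups alone (adjusted p = 0.0609).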

How the results depend on the processing

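Of 90 results (6 genes in 15 comparisons), 70 were called. Of these, 61 were called under every alternative, including the loss of any of the 46 libraries. The comparisons share libraries, so the results are not separate. The share of all genes called ran from 4.7% for E2 against Vehicle to 53% for ICI + 27HC against Vehicle. Among results called in the main or the alternative fit, 0 reversed. Some uncalled values near 0 did change sign, such as Acaca with E2 against Vehicle (-0.04 to 0.04 with each library left out). DESeq2's test and its size factors kept all 90 on the same side of the threshold. Without a filter 4 calls were lost, and in fits of the compared groups alone 6 were lost and 2 gained. Replicate numbers are shared by the groups, but same-numbered libraries did not deviate together (correlations of -0.04 to 0.08 over 65 pairs). The fit with replicate number as a block lost 1 call, that of Me1 for GSK2033 + 27HC against Vehicle (log2 fold change 0.11, adjusted p = 0.0989). No count of called genes moved by over 1.5 times except when a library was left out: the members called ran from 1 to 3 for ICI against Vehicle and from 2 to 4 for the interaction of ICI with 27HC. With each library left out in turn, the log2 ratio to Fasn ran from -1.04 to -0.78 for Acss2 with 27HC, from -0.51 to -0.36 for Mid1ip1 with GW3965, and with GSK2033 + 27HC from -0.51 to -0.38 for Mid1ip1, from -0.35 to -0.15 for Acaca and from 0.27 to 0.49 for Me1. The call was lost in 3 of 11 leave-outs for the first, 8 of 11 for the next and 7 of 11 for Mid1ip1 with GSK2033 + 27HC, and a call was gained in 1 of 11 for each of the other 2. The cause was not tested. The limits that matter most are the low counts of Acss2, the unnamed second compound, the missing doses and times, and the unknown source of the replicates.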
